A study of Mus musculus with 6 samples.

Results

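The genes examined were 10 genes of prostaglandin and leukotriene synthesis: Pla2g4a, Ptgs1, Ptgs2, Ptges, Ptgds, Hpgds, Tbxas1, Alox5, Alox5ap and Ltc4s. They were chosen by gene name for their place in the pathway, with earlier results of these data known. All 10 were found among the 55357 genes listed for cultured mouse cortical astrocytes. Cortices came from C57BL/6 embryos at embryonic day 18, and the mixed cultures were shaken and replated to enrich astrocytes. In the first group (KE, n = 3 cultures), the cells received a plasmid in which the CMV promoter, which is not restricted to a cell type, drives FLAG-tagged BRAF carrying the K499E substitution found in RASopathy. The second group (NT, n = 3 cultures) was not transfected, and poly(A) RNA of both was collected at 48 hours. Neither an empty plasmid nor BRAF WT is among the groups, so effects of transfection and of BRAF KE cannot be told apart. Nothing in the labels says that the cultures came from separate litters, so p-values measure the spread between these cultures.

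Prostaglandins and leukotrienes are signaling lipids made on demand from arachidonic acid. A phospholipase releases arachidonic acid from membranes, cyclooxygenases turn it into prostaglandin H2, and terminal synthases turn that into prostaglandin E2, prostaglandin D2 or thromboxane. In a separate branch, 5-lipoxygenase and its activating protein make leukotriene A4, from which leukotriene C4 is formed. In the brain, microglia and macrophages are known for the leukotriene and thromboxane enzymes, while COX-2 and microsomal prostaglandin E synthase are induced together in many cell types during inflammation.

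The cultures were sequenced to roughly 2.45e+07 to 3.41e+07 reads, as estimated from the low values, KE replicate 2 being the least deep. Braf was between 34933 and 40978 normalized counts in KE and between 811 and 946 in NT, which checks the labels, although the gene table cannot separate plasmid from endogenous transcript. Of 12 astrocyte markers, Gfap and Aldh1l1 were abundant in all 6 cultures, and S100b was low, at 11.8 to 31.5 normalized counts. The cultures also contained transcripts of microglia and macrophages. All 19 tested genes of a 20-gene list of these cells were downregulated in KE, with Siglech at 0 throughout, and the list summed to 6371 to 8983 normalized counts in KE and 55434 to 66726 in NT. Within KE the sum was highest in replicate 2, and within NT it was lowest in replicate 3.

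Compared with NT, the BRAF KE–transfected cultures had more transcript of Ptgs2, Ptges and Pla2g4a and less of the other 7 genes. All 10 passed the filter of a mean of at least 10 normalized counts. By limma with Benjamini-Hochberg adjustment over 15280 genes, 3 members were upregulated and 7 downregulated, where 51.3% of all tested genes were called, 25.3% higher and 26.0% lower. Ltc4s passed the filter only through its NT values, and without it the counts were 3 and 6. In all 10 members the groups were fully separated, as they were in 59.9% of all tested genes (30.1% with KE above and 29.9% with KE below). The median absolute log2FC of all tested genes was 0.30, and the members ranged from -4.03 to 3.46. The log2FC is that of the normalized count plus 1, which understates changes of low genes such as Ltc4s.

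**Figure D1:**
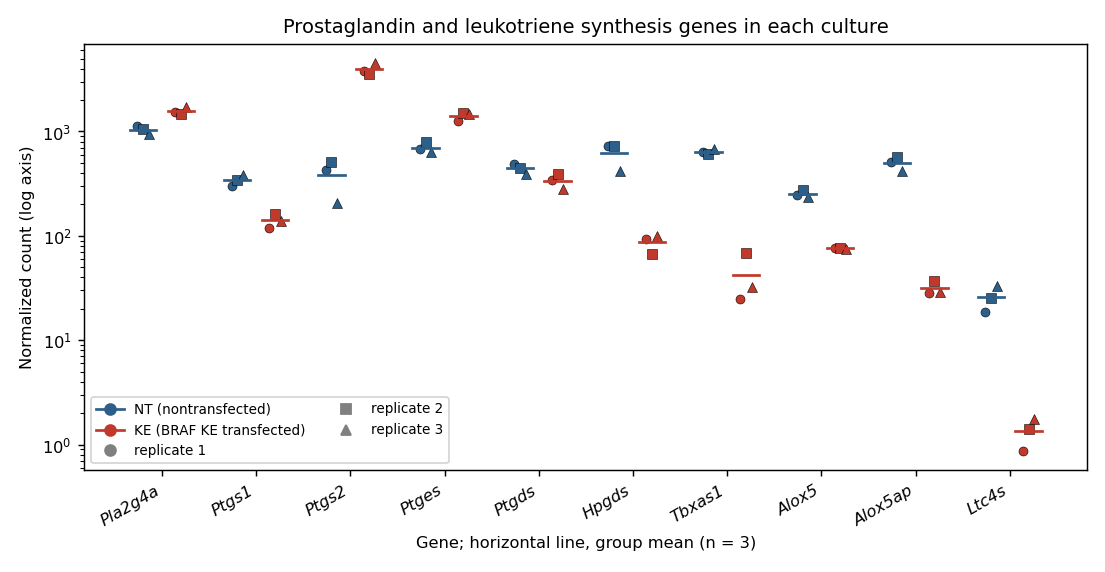
Normalized count of each gene (log axis) in the 3 NT and 3 KE cultures, with 1 symbol for each replicate number and a line at the group mean. Pla2g4a, Ptgs2 and Ptges are higher in every KE culture and the other 7 genes lower, with Ptgds nearly touching (390.1 in KE replicate 2 and 390.6 in NT replicate 3).

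Per kilobase of merged exon, the order of the genes differed between the groups. Merged exon length joins the exons of all annotated transcripts of a gene. It was 12.6 kb for Tbxas1, 7.92 kb for Hpgds and 7.46 kb for Ptgds, against 1.04 kb for Ltc4s. The lengths of the transcripts present in the cultures were not estimated, so ranks and evenness between genes hold only for this divisor. A gene with a long merged length can be ranked too low. In KE, Ptgs2 had the highest level (770 ± 94.8 normalized counts per kb, SD, n = 3), followed by Ptges (320.3 ± 31.7) and Pla2g4a (210.2 ± 16.0), and the cultures of neighboring genes in that order did not overlap from Ptgs2 down to Ptgds. In NT the levels were more even. Ptges (159 ± 18.2), Pla2g4a (139 ± 11.9) and Alox5ap (129 ± 20.5) led. Ptges overlapped Pla2g4a and Pla2g4a overlapped Alox5ap, whereas Alox5ap did not overlap Ptgs1, the next in order. Ptgs2 (74.3 ± 30.4) ranked sixth, overlapping both Hpgds (78.6 ± 22.5) and Alox5 (61.5 ± 5.08). Alox5ap was thus among the highest members in NT, but in KE it ranked eighth with 8.18 ± 1.27. Ltc4s was the lowest in both groups.

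Pla2g4a encodes cytosolic phospholipase A2, which releases arachidonic acid. It lies on the minus strand at chr1:149705369-149837053 of GRCm39. Its normalized counts were 1534, 1484 and 1713 in KE replicates 1, 2 and 3 and 1122, 1051 and 945 in NT. Every KE culture was above every NT culture, and the log2FC of 0.60 was the smallest of the 3 rises (SE 0.08, limma adjusted p = 0.00013). Its start side lies 138 kb from Ptgs2, the start of which faces it on the plus strand.

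The cyclooxygenases moved in opposite directions. Ptgs2 (chr1:149975194-149983978, plus strand) encodes COX-2, the inducible form. It was 3782, 3564 and 4493 normalized counts in KE and 424, 510 and 208 in NT. The KE cultures lay far above NT, and the lowest NT value was that of replicate 3. The mean was 10.4-fold higher, with a log2FC of 3.46 (95% confidence interval 2.90 to 4.02, adjusted p = 9.9e-07 from limma), and 0.327% of all tested genes had a log2FC as high. Ptgs1 (chr2:36120438-36142287, plus strand) encodes COX-1, the constitutive form. Its normalized counts were 119.8, 163 and 139 in KE and 298, 339 and 381 in NT. It was thus lower in each KE culture, with a log2FC of -1.27 (95% confidence interval -1.59 to -0.95, adjusted p = 3.1e-05 from limma).

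The ratio of the cyclooxygenases within a culture does not depend on the scaling between cultures. For KE replicates 1, 2 and 3 the log2 ratio of Ptgs2 to Ptgs1 was 4.97, 4.44 and 5.0, against 0.51, 0.59 and -0.87 for NT. It averaged 4.81 ± 0.31 in KE and 0.07 ± 0.82 in NT (SD, n = 3), a difference of 4.73. An exact two-sided permutation test gave p = 0.1, the smallest that 3 cultures against 3 allow. Per kilobase of merged exon, Ptgs2 made up 94.3% to 96.1% of the summed cyclooxygenase level in KE and 29.3% to 53.3% in NT.

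**Figure D2:**
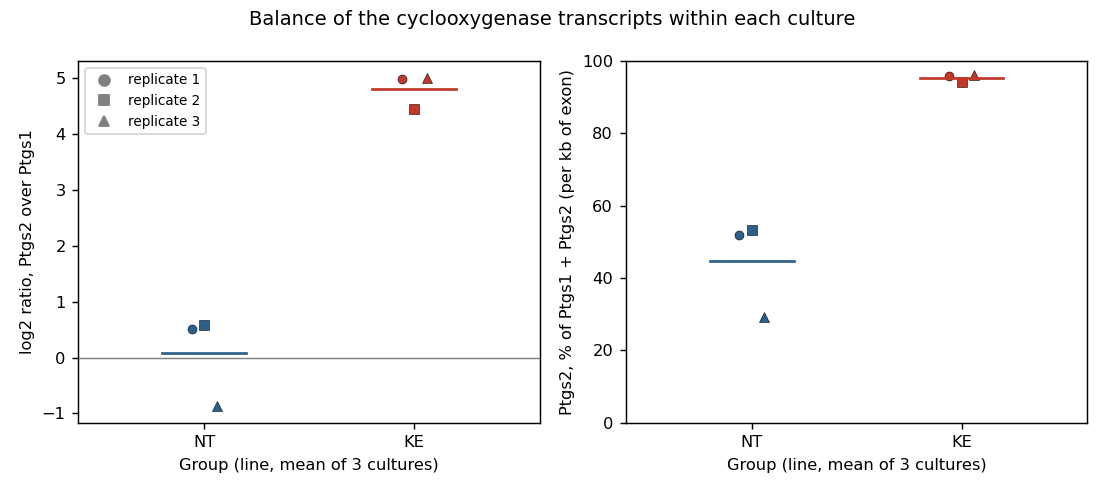
Left, log2 ratio of Ptgs2 to Ptgs1 normalized counts in each culture. Right, Ptgs2 as a percentage of the summed Ptgs1 and Ptgs2 level per kb of exon, from 0 to 100. Lines mark the mean of 3 cultures. The KE cultures lie together near the top, and NT replicate 3 lies below the other NT cultures in both panels.

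Among the terminal prostaglandin synthases, the prostaglandin E2 enzyme rose and those for prostaglandin D2 and thromboxane fell. Ptges (chr2:30779483-30820196, minus strand) encodes microsomal prostaglandin E synthase 1. It was 1253, 1517 and 1462 normalized counts in KE and 686, 788 and 630 in NT. The KE mean was 2.01-fold that of NT, with no overlap and a log2FC of 1.01 (SE 0.10, limma adjusted p = 1.0e-05). The fall of the remaining synthases was of very different size. In bulk RNA such as this, fewer cells of a type and less RNA per cell cannot be told apart.

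Tbxas1 (chr6:38852203-39061523, plus strand), which encodes thromboxane A synthase, had the lowest log2FC of the 10, close to that of Alox5ap. Its normalized counts were 24.9, 68.2 and 32.4 in KE and 638, 604 and 678 in NT. The KE cultures differed among themselves, replicate 2 being the highest, and all were far below NT. The NT mean was 15.3-fold higher, with a log2FC of -4.03 (95% confidence interval -4.66 to -3.40, adjusted p = 7.6e-07 from limma). Without KE replicate 2 the log2FC was -4.44.

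Hpgds (chr6:65094001-65121983, minus strand) encodes the hematopoietic prostaglandin D synthase, known from microglia and mast cells. It was 92.3, 67.5 and 100.2 normalized counts in KE and 731, 720.3 and 418 in NT. NT replicate 3 was lower than the other NT cultures but above every KE culture. The log2FC was -2.81 (SE 0.22, limma adjusted p = 1.6e-06). Of 8 mast cell markers, 6 were at 0 in all cultures, and only Kit, which other cells also express, was tested. Kit was lower in KE without overlap (log2FC -0.87, limma adjusted p = 7.9e-05), and the part of mast cells in the Hpgds difference was not tested.

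Ptgds (chr2:25352795-25362601, minus strand) encodes the lipocalin-type prostaglandin D synthase, known from oligodendrocytes and leptomeninges. Its normalized counts were 343, 390.1 and 283 in KE and 491, 451 and 390.6 in NT. The groups barely separated, with a log2FC of -0.40 (95% confidence interval -0.69 to -0.11, adjusted p = 0.027 from limma). The call was lost on leaving out KE replicate 1 (adjusted p = 0.058), KE replicate 3 (0.108), NT replicate 1 (0.105) or NT replicate 2 (0.067), and in limma without a variance trend (0.068). Of 8 tested oligodendrocyte markers, 6 were lower and 1 higher in KE, the list summing to 28295 to 33123 in KE and 35720 to 35967 in NT, with none at 0 throughout. Among 9 tested meningeal and fibroblast markers, 3 were higher and 3 lower, with sums of 2831 to 3068 in KE and 3576 to 3654 in NT and none at 0 throughout. Pdgfra, the most abundant of them, averaged 971 normalized counts in KE and 1773 in NT, whereas Lum, Col1a2 and Foxc1 were higher in KE. The lower sums in KE thus rest mainly on Pdgfra and do not describe the list as a whole. The lower genes of both lists include Mobp and Aldh1a2, which passed the filter only through NT. The part of these cell types in the Ptgds difference was not tested.

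All 3 genes of the 5-lipoxygenase branch were downregulated. Alox5 (chr6:116387032-116438139, minus strand) encodes 5-lipoxygenase itself. It was 77.0, 76.8 and 75.3 normalized counts in KE and 246, 276 and 236 in NT. The KE cultures were nearly identical, and the log2FC was -1.71 (95% confidence interval -2.0 to -1.42, limma adjusted p = 1.5e-06). Alox5ap (chr5:149196003-149227762, plus strand) encodes FLAP, the membrane protein that presents arachidonic acid to 5-lipoxygenase. Its normalized counts were 28.4, 37.3 and 29.2 in KE and 506, 573 and 415 in NT. The NT mean was 15.8-fold higher, with a log2FC of -3.93 (95% confidence interval -4.31 to -3.56, limma adjusted p = 2.5e-08), an interval that does not overlap that of Alox5. Ltc4s (chr11:50127288-50129443, minus strand), which encodes leukotriene C4 synthase, was 0.87, 1.40 and 1.76 in KE and 18.7, 25.6 and 32.8 in NT. The KE values correspond to about 1 or 2 reads, so its log2FC of -3.49 is imprecise (95% confidence interval -4.49 to -2.50, adjusted p = 7.8e-05 from limma). With a pseudocount (the value added to the count) of 5 the log2FC of Ltc4s was -2.25, and with 0.5 it was -3.82.

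**Figure D3:**
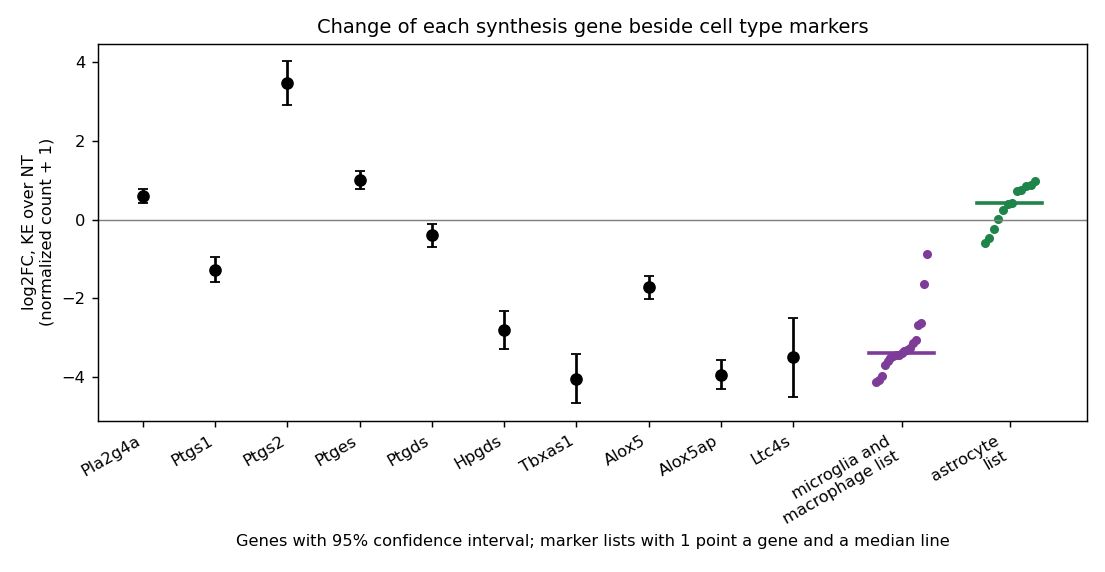
log2FC of KE over NT for the 10 genes with 95% confidence intervals, beside the tested microglia and macrophage markers (19 points) and astrocyte markers (12 points), with lines at the list medians. Hpgds, Tbxas1, Alox5ap and Ltc4s have log2FC within the range of the microglia and macrophage markers (-4.12 to -0.88), as do Ptgs1 and Alox5 near its upper end. Ptgds lies between that range and 0. Ptgs2 lies above the astrocyte markers, as does Ptges by little (1.01, where the highest marker has 0.97).

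The downregulated members moved in the same direction as the microglia and macrophage markers, so their size was set beside that list. The 19 tested markers had a median log2FC of -3.37, ranging from -4.12 to -0.88, where Itgam had -4.07 and P2ry12 -0.88. Their mean log2 level was 7.92 ± 0.31 in KE and 11.11 ± 0.16 in NT (SD, n = 3), a difference of -3.19. Relative to this mean within each culture, Hpgds differed by 0.38 on the log2 scale (0.16 without KE replicate 3 and 0.73 without KE replicate 2), and the cultures overlapped. Ltc4s differed by -0.31, also with overlap, but its direction depended on the pseudocount, with 0.91 at a pseudocount of 5 and -0.63 at 0.5, and its size on single cultures, with -0.02 without NT replicate 3 and -0.55 without NT replicate 1. Tbxas1 and Alox5ap were lower relative to the markers by differences of -0.85 and -0.75, without overlap. Alox5 and Ptgs1 were higher relative to the markers by 1.48 and 1.92, and Ptgds by 2.79, as their own falls were smaller. The 3 upregulated genes stood 3.79 to 6.65 higher relative to the markers. Single cultures gave a mixed picture. Within KE, replicate 2 had the highest marker sum along with the highest Ptgs1, Ptgds, Tbxas1 and Alox5ap but the lowest Hpgds. Its Alox5 and Ltc4s lay between those of the other KE cultures. Within NT, replicate 3 had the lowest sum along with the lowest Ptgds, Hpgds, Alox5 and Alox5ap but the highest Ptgs1, Tbxas1 and Ltc4s. These values come from cell mixtures, and the part of microglia and macrophages in the falls was not tested. The astrocyte list moved the other way, with 8 of 12 markers higher and 2 lower, a median log2FC of 0.41 and sums of 167620 to 170776 in KE and 118958 to 124678 in NT. None of its genes was at 0, and its part in the 3 rises was not tested.

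Promoter sequence was read for all 10 genes to describe the motifs beside the starts of the members that rose and fell. The window was 250 bases before to 50 after the start of the canonical transcript in Gencode vM39 on GRCm39, and 21757 protein-coding genes were searched alike on both strands. Ptgs2, the gene with the largest rise, was the only member with the 10-letter NF-kB consensus in this window, which 8.97% of all promoters contain. The PU.1 core GAGGAA (27.5% of all promoters), a motif of a myeloid transcription factor, was found in 6 members, of which Ptgs1, Tbxas1, Alox5, Alox5ap and Ltc4s were downregulated and Ptges upregulated. AP-1 (TGANTCA, 7.15% of all promoters) was found only in Tbxas1, as were the TATA box letters TATAAA (13.2%), which lie after its start. None of the 10 contained the CRE (TGACGTCA, 2.45%), C/EBP (TTGCNNAA, 10.7%) or E-box (CACGTG, 7.82%) letters in this window. Other starts of a gene were not searched. For Ptgs2 the start used was chr1:149975488, while the annotated gene begins at 149975194. Its motifs near any other start can therefore be missed, and their absence here does not describe the whole promoter. A match describes letters and shows no binding. The matches before the start site are shown with 30 bases each, 5′ to 3′ on the strand of the gene, with the motif in capitals, for the inducible COX-2 gene and Ptges, which rose, and then for the genes that fell.
Ptgs2, NF-kB, chr1:149975437-149975466: ggagaggtgaGGGGATTCCCttagttagga
Ptges, PU.1 on the opposite strand, chr2:30793441-30793470: gggacacctccaTTCCTCtgcttcccaccc
Ptgs1, PU.1, chr2:36120402-36120431: aaggctggagcaGAGGAAgttggcggtcag
Alox5, PU.1, chr6:116438258-116438287: agagatggggcaGAGGAAcaagggcttcag
Alox5ap, PU.1, chr5:149201396-149201425: taacaattagaaGAGGAAgaatgaaaacta
Tbxas1, AP-1, chr6:38895848-38895877: aataaagttgcTGATTCAttgccctgaagc

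Other genes of the pathway were compared in 4 lists with 57 genes in all, of which 40 were tested, 12 upregulated and 10 downregulated, shares near those of all tested genes (25.3% higher and 26.0% lower). Their median log2FC was -0.05. Of the 40, Cysltr1, Dpep2, Hpgd, Ptger2, Pla2g2e and Ltb4r1 passed the filter through 1 group only, with a mean under 10 in the other, and without them 11 of 34 were higher and 6 lower, with a median of -0.01. Of the 13 tested phospholipases and lipases, 4 were higher, 2 lower and 7 not called. The largest rise was that of Mgll, the lipase that frees arachidonic acid from the endocannabinoid 2-arachidonoylglycerol. Mgll was 7037, 7183 and 6944 normalized counts in KE and 1701, 1470 and 1345 in NT, all KE cultures being far above NT. Its log2FC was 2.23 (SE 0.08, limma adjusted p = 8.3e-09). The other rises were smaller or of a low gene, Pla2g7 (log2FC 0.44), Pla2g12a (0.50) and Pla2g2e (1.36, at 3.09 to 21.5 normalized counts), and were singled out after their values were seen. The falls were those of Faah, which degrades anandamide (log2FC -0.87, adjusted p = 0.00099), and of the lysosomal phospholipase Pla2g15 (log2FC -0.85, adjusted p = 2.1e-05).

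Of the 7 tested synthases outside the 10 members, 1 was higher and 2 lower. Ptges2, which encodes the second microsomal form of prostaglandin E synthase, was 2327, 2280 and 2100 normalized counts in KE and 1136, 1227 and 1373 in NT. It rose together with Ptges, with a log2FC of 0.85 (adjusted p = 6.4e-06 from limma), whereas Ptges3, which encodes the cytosolic form and HSP90 cochaperone p23, fell by 0.29 on the log2 scale (adjusted p = 0.0018). The other lower gene was Ptgis, the prostacyclin synthase (log2FC -0.80, adjusted p = 0.024, at 16.5 to 37.7 normalized counts), also singled out after its values were seen. Lta4h, the leukotriene A4 hydrolase of the leukotriene B4 branch, was not called. Its log2FC was -0.15 (95% confidence interval -0.28 to -0.02, adjusted p = 0.054), with 2138 to 2241 normalized counts in KE and 2322 to 2525 in NT. The other 6 lipoxygenase genes were too low to be tested, at 0 to 13.98 normalized counts.

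Of the 11 tested inactivation and conjugation genes, 5 were higher and 2 lower. Both lower genes, Hpgd and Dpep2, passed the filter only through NT, and without them 5 of 9 were higher and the other 4 were not called. Hpgd, the 15-hydroxyprostaglandin dehydrogenase that begins prostaglandin breakdown, was 11.7, 8.75 and 8.15 normalized counts in KE and 91.1, 69.3 and 76.4 in NT. It was far lower in every KE culture, with a log2FC of -2.93 (adjusted p = 4.8e-06 from limma). Ptgr1 and Ptgr2, reductases of the next step, were higher with log2FC of 1.28 and 0.54. Higher levels were also found for Ggt1, a gamma-glutamyltransferase that can act on leukotriene C4 (log2FC 2.04), and for Ephx2, the soluble epoxide hydrolase (log2FC 0.93), while Dpep2, a dipeptidase for leukotriene D4, was lower (log2FC -2.36). The export pump Abcc1, which carries leukotriene C4, was the fifth gene that rose (log2FC 0.46). Hpgd, Dpep2 and Abcc1 lie outside the rule for named genes and were singled out after their values were seen.

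Eicosanoid receptors reached at most 174.8 normalized counts (Ptgfr in KE replicate 1), and 9 of 15 were tested, of which 2 were higher and 4 lower. Without Cysltr1, Ptger2 and Ltb4r1, which passed the filter through 1 group only, 2 of 6 were higher and 2 lower. Ptger4, the prostaglandin E2 receptor EP4, was 10.9, 21.0 and 15.5 normalized counts in KE and 160.3, 154 and 131 in NT. Every KE culture was far below every NT culture, with a log2FC of -3.19 (adjusted p = 1.7e-06 from limma). Ptger2 fell by 1.40 on the log2 scale (adjusted p = 0.025), a call lost without KE replicate 2 (adjusted p = 0.071) or NT replicate 1 (0.113). Ptger1 had a log2FC of -0.14 (95% confidence interval -0.87 to 0.59), and Ptger3, at 0.76 to 10.4 normalized counts, was not tested. Cysltr1, a receptor for cysteinyl leukotrienes, was 4.06, 8.02 and 9.35 in KE and 105, 102 and 102 in NT. It was lower in every KE culture, as were the leukotriene synthesis genes, with a log2FC of -3.74 (adjusted p = 2.4e-06). Gpr17, found in oligodendrocyte precursors and related to these receptors, had a log2FC of -1.33. The higher genes were Ltb4r2, a leukotriene B4 receptor (log2FC 1.18, adjusted p = 0.0069), which was singled out after its values were seen, and Ptgfr, the prostaglandin F receptor (log2FC 0.86, adjusted p = 0.041), whose groups overlapped and whose call was lost in 7 of 14 alternatives. The log2FC of Ptgfr ranged from 0.56 without NT replicate 1 to 1.26 without NT replicate 3.

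**Figure D4:**
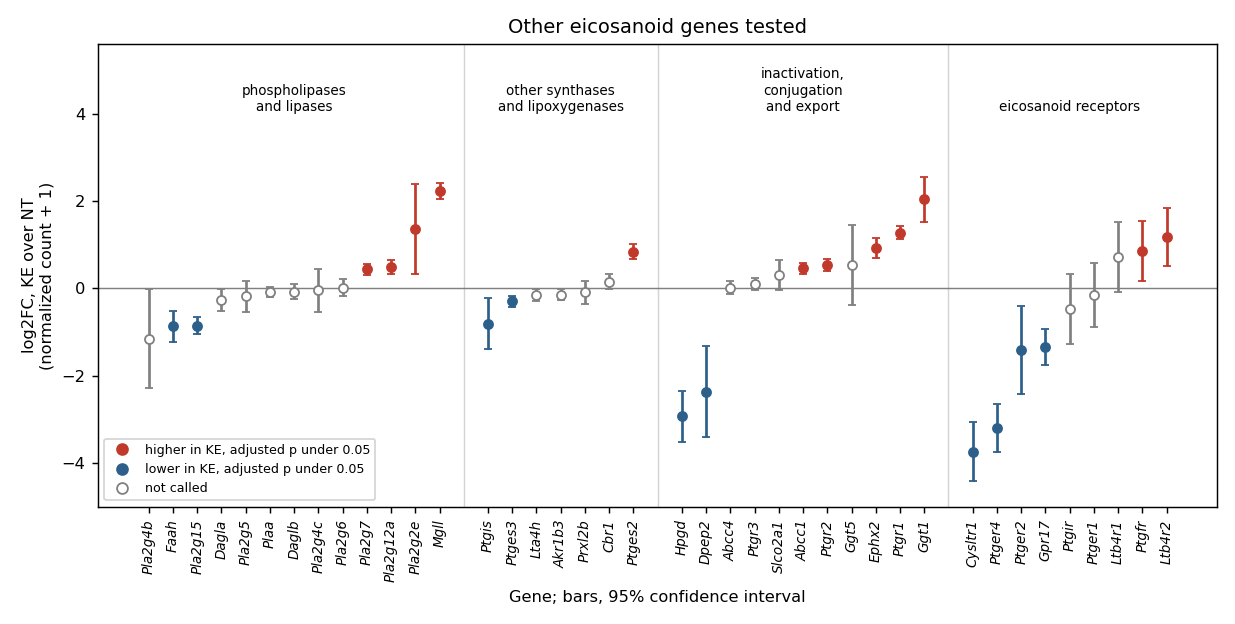
log2FC of KE over NT with 95% confidence intervals for the 40 tested eicosanoid genes outside the 10 members, in 4 lists. Filled points have an adjusted p under 0.05 by limma (12 higher, 10 lower), and open points were not called. Mgll and Ggt1 are the highest, and Cysltr1, Ptger4 and Hpgd are the lowest.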

How the data were processed

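The authors deposited a normalized signal (normalized count) for every gene in each culture. The authors obtained it from Salmon gene counts by dividing by DESeq2 size factors, after trimming with Trim Galore and alignment with STAR. The paper's methods give GRCm39 with Gencode vM28 for mouse samples, while the submitters' processing notes name GRCh38. The gene identifiers are mouse. A batch adjustment is mentioned without naming batches, so none was modelled. Scaling removes depth, which was approximated from the most frequent low value. Whole reads (tolerance 0.1) were returned by 74.7% to 77.6% of the low values, so no count test was run. No column was left out.

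The log2 of the value plus 1 was fitted with limma 3.58.1 (R 4.3.3, group as the only factor, variance trend, two-sided) in genes with a mean of at least 10, with Benjamini-Hochberg adjustment and a threshold of 0.05. The fit was tested on simulated data. Members and lists were chosen with earlier results of these data known, and lists were written from general knowledge. Other eicosanoid genes were named where called with a mean of at least 50 and an absolute log2FC of at least 0.5, plus prostaglandin E receptors, Ptges2, Ptges3 and Lta4h. Ptgr3 was matched by its identifier. Exon lengths and coordinates are from Gencode vM39 on GRCm39, and each member except Pla2g4a overlaps an annotated antisense exon, whose reads are separated only if the counting used the strand of the stranded library, which is not given in the sources used here. Alternatives were other pseudocounts, filters and scalings, no trend, the replicate block and leaving out each culture.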

Additional observations from a re-analysis of the deposited data

How the results depend on the processing

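Under 14 alternatives, 9 of the 10 members kept their direction and call wherever they could be tested, the exception being Ptgds, which lost its call in 5 (adjusted p 0.0111 to 0.108 over its alternatives). Ltc4s gives no value with a mean of at least 50. Over 30 named genes, 398 of 414 comparisons kept direction and call, 14 lost the call, 1 (Lta4h without NT replicate 2, adjusted p = 0.043) gained it, and 1 reversed: Ptger1, never called, had a log2FC of 0.21 without KE replicate 1 and -0.38 without KE replicate 3, the ends of its leave-one-out range. With a mean of at least 50, 6 other eicosanoid genes were lower in place of 10, as fewer genes are tested. Relative to the microglia and macrophage markers, Ltc4s turned from -0.31 to 0.91 with a pseudocount of 5. Leaving out 1 culture gave 3308 to 3540 upregulated and 3484 to 3730 downregulated genes, and a Ptgs2 to Ptgs1 log2 ratio difference of 4.26 to 4.99. Same-numbered cultures deviated together only weakly (r of 0.059, 0.066 and 0.065 across genes, each the highest for its culture), so the numbers were not taken as pairs. With the replicate block, 3967 genes were higher and 4079 lower, with 3 and 7 of the members, and Ptgfr lost its call (adjusted p = 0.054). Depth limits the genes with few reads, such as Ltc4s, whose KE values are near those of single reads.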
